A study of Homo sapiens with 22 samples.

Results

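The 6 mRNAs MT-CYB, MT-CO1, MT-CO2, MT-CO3, MT-ATP6 and MT-ATP8 are encoded on mitochondrial DNA and specify subunits of respiratory complexes III, IV and V. They were chosen by gene symbol, and all 6 were found among the 34679 genes of the count table. They were followed in LUHMES cells, a human line of embryonic midbrain origin that can be turned into post-mitotic neurons. The 6 groups were wild-type cells left untreated, cells overexpressing alpha-synuclein left untreated, wild-type cells given 6-OHDA, alpha-synuclein cells given 6-OHDA, and alpha-synuclein cells given 6-OHDA with quercetin or with rutin. 6-OHDA (6-hydroxydopamine) is a dopamine analogue whose oxidation yields reactive oxygen species, quercetin is a plant flavonol, and rutin is a glycoside of quercetin. Each group without a compound had 4 libraries and each compound group had 3, giving 22 libraries of polyadenylated RNA. Every alpha-synuclein group carries the same overexpression, and both compound groups also received 6-OHDA. Per the design text, 6-OHDA made the cells models of Parkinson disease and the compounds were tried for protection of the neurons. Doses, exposure times, the construct behind the overexpression and whether a group is 1 clone are not stated in the labels.

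The human mitochondrial genome is a small circle that is transcribed from each strand as long precursors, which are cut at the tRNAs between the genes into separate mRNAs and then polyadenylated. Their levels therefore depend on transcription by the polymerase POLRMT and on processing, tailing and decay of each mRNA, carried out by nuclear-encoded factors such as LRPPRC and SLIRP. Cytochrome b (MT-CYB) is the mitochondrially made core of complex III, MT-CO1, MT-CO2 and MT-CO3 form the catalytic core of cytochrome c oxidase (complex IV), and MT-ATP6 and MT-ATP8 belong to the membrane part of ATP synthase (complex V). The remaining subunits of these complexes come from nuclear genes, and the other 7 mitochondrial mRNAs encode subunits of complex I. Neurons depend on oxidative phosphorylation for most of their ATP.

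All 6 genes lie on the plus strand of the mitochondrial chromosome (M) of GRCh38, with positions from GENCODE 29. MT-CO1 spans 5904 to 7445, MT-CO2 7586 to 8269, MT-ATP8 8366 to 8572, MT-ATP6 8527 to 9207, MT-CO3 9207 to 9990 and MT-CYB 14747 to 15887. These genes have no introns and next to no untranslated sequence, so their counts are of coding sequence. The last 30 bases of each annotated gene are shown, with the letters of its stop, or the final AGA of MT-CO1, in capitals. These are ends of genes and not always of mRNAs, as MT-ATP8 ends inside MT-ATP6.
MT-CYB: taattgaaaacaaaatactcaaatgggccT
MT-CO1: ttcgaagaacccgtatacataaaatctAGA
MT-CO2: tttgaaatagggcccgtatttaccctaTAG
MT-CO3: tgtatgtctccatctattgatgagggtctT
MT-ATP6: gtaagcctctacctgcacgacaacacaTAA
MT-ATP8: tcgcttcattcattgcccccacaatccTAG
MT-CYB and MT-CO3 end in a lone T, and it is the poly(A) tail that completes their UAA stop. MT-CO2, MT-ATP6 and MT-ATP8 carry a whole stop codon, and MT-CO1 ends in AGA.

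MT-ATP8 and MT-ATP6 share 46 bases (chrM:8527-8572) in different reading frames and are carried on 1 mRNA. The shared stretch is shown because reads inside it cannot be assigned to either gene; the capitals mark the start codon of MT-ATP6 at its left end and the stop codon of MT-ATP8 at its right end.
overlap: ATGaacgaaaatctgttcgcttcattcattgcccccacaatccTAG
MT-ATP6 and MT-CO3 share 1 further base. The counts were estimated by kallisto, which divides ambiguous reads among transcripts, so the levels of MT-ATP8 and MT-ATP6 cannot be fully separated. Each gene is counted as 1 mRNA in this report, although MT-ATP8 and MT-ATP6 share theirs.

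Copies of these genes also stand in the nuclear genome, and the table held 179 such rows. A pair of them averaged at least 10 CPM (counts scaled to a common library size of 1 M) over the 22 libraries, and each is near-identical to its mitochondrial source. MTCO1P12, on chromosome 1 from 631074 to 632616, differed from MT-CO1 at 20 of 1542 aligned bases (98.7% identity). MTATP6P1, on chromosome 1 from 633696 to 634376, differed from MT-ATP6 at 10 of 681 bases (98.5% identity). The 60-base windows below (chrM:6207-6266 and chr1:631377-631436 for the first pair, chrM:8642-8701 and chr1:633811-633870 for the second) show how few letters tell the copies apart, with the differing letters in capitals. Each window was chosen to hold the most differences in its pair, so it is not typical of the whole gene.
MT-CO1: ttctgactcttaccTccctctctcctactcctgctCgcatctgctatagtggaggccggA
MTCO1P12: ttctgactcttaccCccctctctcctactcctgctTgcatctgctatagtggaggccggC
MT-ATP6: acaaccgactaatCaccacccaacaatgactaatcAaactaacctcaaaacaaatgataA
MTATP6P1: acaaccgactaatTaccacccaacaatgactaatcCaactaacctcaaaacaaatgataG
Over all libraries the nuclear copies of MT-ATP6 summed to 5.15% of its count, with a range of 3.20 to 8.17% by library. For the other 5 genes the sum was between 0.0641% (MT-ATP8) and 0.776% (MT-CYB). Adding the copies to their source gene before the fit left the number of called genes of the 6 as it was in each of the 8 comparisons.

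Library totals ran from 1.87 to 20.67 M counts (M, mega), and the 6 mRNAs took between 0.483 and 1.16% of a library. In treated wild-type cells 3 of the 4 libraries were shallow (1.87 to 3.12 M against 12.64 M), and a floor of 3 counts equalled 0.168 to 1.49 CPM over all libraries. Library 4 of the treated alpha-synuclein cells stood apart from the other 3 on the first principal component (-1.47 against 38.1 to 40.8). All 6 neuronal markers (TUBB3, MAP2, RBFOX3, STMN2, SYT1, SNAP25) were detected in every library, and 3 microglial markers (AIF1, CX3CR1, P2RY12) stayed under 1 CPM. Of the 5 dopaminergic markers TH ran from 46.8 to 419 CPM, NR4A2 from 6.59 to 26.5 CPM and SLC6A3 from 4.08 to 14.0 CPM, while DDC reached at most 2.43 CPM and SLC18A2 at most 2.59 CPM. Of the astrocyte markers GFAP reached 11.5 CPM, ALDH1L1 9.68 CPM, S100B 1.86 CPM and AQP4 0.498 CPM. OLIG1 and OLIG2 of the oligodendrocyte lineage reached 84.2 and 60.7 CPM, and COL1A1 of fibroblasts 17.8 CPM.

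In untreated wild-type cells MT-CO1 was the most abundant of the 6, at 5637 ± 243 CPM (SD, n = 4). Per kilobase of gene its level was 3656 ± 158 CPM (SD, n = 4), followed by MT-CO3 (1663 ± 104), MT-CO2 (1146 ± 129), MT-CYB (764 ± 43.4), MT-ATP6 (462 ± 56.2) and MT-ATP8 (72.8 ± 5.16). MT-ATP8, the shortest at 207 bases, rested on 78 to 151 counts in these libraries, against 29467 to 52920 for MT-CO1. The values per kilobase use the full annotated length of each gene. MT-ATP8 and MT-ATP6 are carried on the same mRNA, so their unlike values per kilobase are not levels of separate mRNAs. How far gene length and the assignment of shared reads shape the order was not tested. In each of the 6 genes the treated wild-type cells had the lowest group mean and the untreated alpha-synuclein cells the highest. Of the 30 steps from one group to the next in the order of means, 9 were larger than the larger SD of the pair. Of the 18 steps between the 4 groups in the middle of the order, 4 were.

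**Figure D1:**
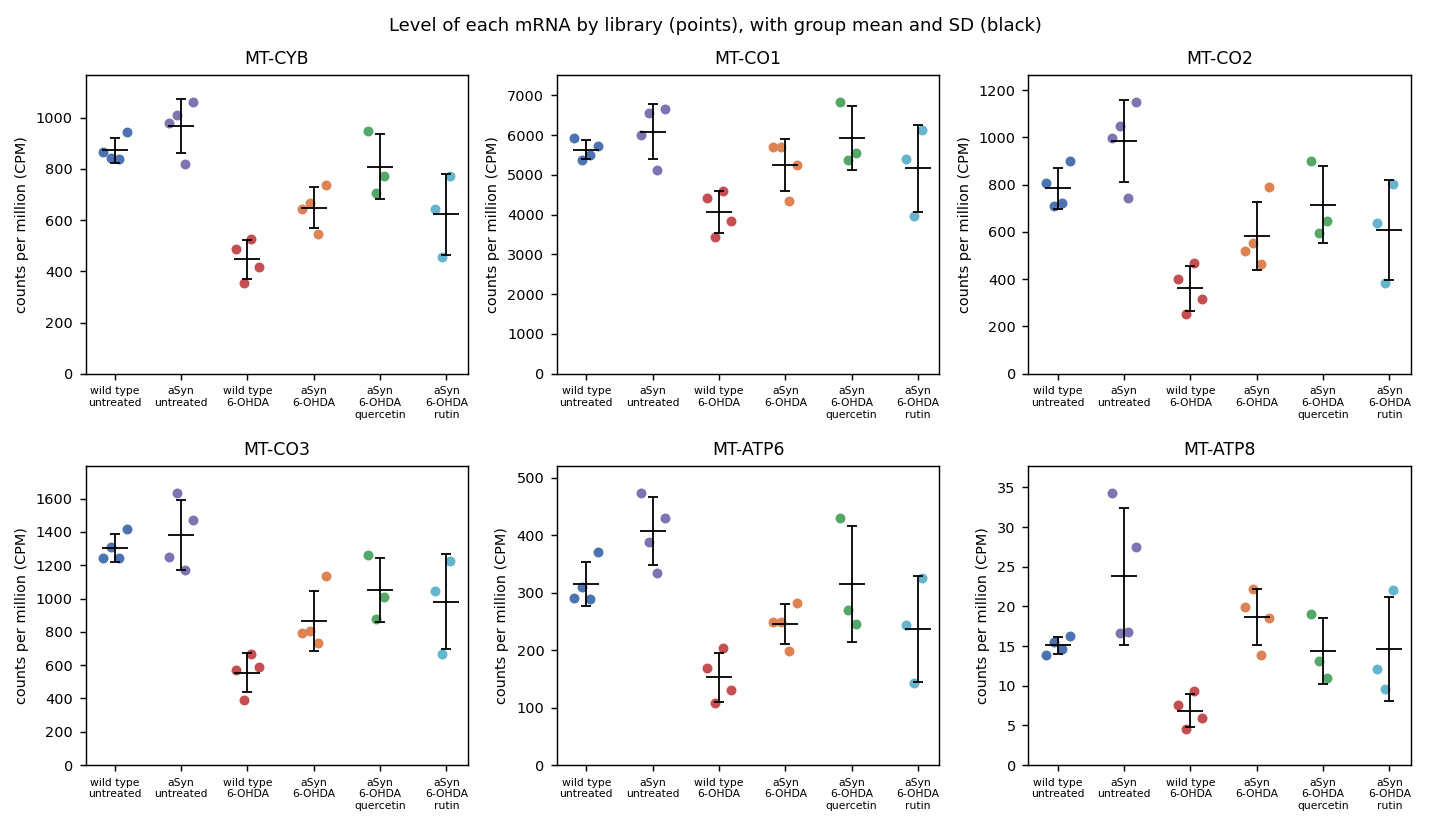
Level of each of the 6 mRNAs in CPM (vertical axis, starting at 0) in the 22 libraries by group (horizontal axis; aSyn, alpha-synuclein), with points for libraries and black bars for the group mean and SD. Treated wild-type libraries were the lowest group throughout, at 4076 CPM on average for MT-CO1 and 6.85 CPM for MT-ATP8.

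6-OHDA lowered all 6 mRNAs in wild-type cells, by 1.38-fold for MT-CO1 and by 1.95-fold to 2.36-fold for the other 5. No treated library overlapped an untreated one for any of them. How many of all genes separated in this way was not counted, here or in the comparisons below. The 6 log2 fold changes had a median of -1.08, where all 16601 genes tested had a median of 0.07. Of those genes 26.2% were called lower and 25.8% higher (edgeR's quasi-likelihood test, adjusted p under 0.05), so being called was common here.

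For cytochrome b, MT-CYB, the untreated wild-type libraries held 866, 840, 838 and 944 CPM and the treated ones 488, 356, 526 and 417 CPM. Its log2 fold change was -0.97 ± 0.14 (SE; edgeR adjusted p = 6.39e-06). Even the highest treated library thus lay well under the lowest untreated one.

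Of the complex IV mRNAs, MT-CO3 fell the most, from 1243, 1311, 1245 and 1417 CPM to 573, 389, 666 and 586 CPM. This was a log2 fold change of -1.24 ± 0.18 (SE; edgeR adjusted p = 5.34e-06). MT-CO2, whose protein holds the copper centre that takes electrons from cytochrome c, fell from 807, 710, 720 and 898 CPM to 402, 254, 470 and 318 CPM, a log2 fold change of -1.12 ± 0.21 (SE; edgeR adjusted p = 0.000157). MT-CO1, whose protein holds the site where oxygen is reduced, went from 5937, 5385, 5506 and 5721 CPM to 4424, 3442, 4593 and 3844 CPM. Its log2 fold change of -0.47 ± 0.12 (SE; edgeR adjusted p = 0.00313) was the smallest of the 13 mitochondrial mRNAs in size, and its 95% interval of -0.72 to -0.21 lay above the estimates of the other 12.

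The ATP synthase mRNAs fell alongside. MT-ATP6, the proton channel subunit, went from 291, 310, 288 and 370 CPM to 168, 107, 204 and 131 CPM, a log2 fold change of -1.05 ± 0.22 (SE; edgeR adjusted p = 0.000407). MT-ATP8 went from 13.9, 15.5, 14.6 and 16.3 CPM to 7.61, 4.54, 9.30 and 5.97 CPM, or by -1.13 ± 0.30 (SE; edgeR adjusted p = 0.00304). In the 3 shallow treated libraries MT-ATP8 rested on 15, 20 and 12 counts, so its level there is coarse.

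In every gene the deep treated library (replicate 1) fell within the range of the 3 shallow ones, and both wild-type groups came from lane 1. The 7 complex I mRNAs were called lower as well, 7 of 7, with a median log2 fold change of -1.32. The summed level of the neuronal markers was 3950 to 4497 CPM in untreated and 1582 to 1714 CPM in treated wild-type libraries. That of the dopaminergic markers was 376 to 420 and 150 to 167 CPM. MAP2 and STMN2 were the most abundant neuronal markers in every library, and TH the most abundant dopaminergic one, so these genes weigh most in the sums. SNAP25 stayed within 77.5 to 114.7 CPM over all 22 libraries, so the neuronal sum does not stand for each marker. The summed markers of astrocytes were at 8.03 to 9.34 CPM untreated and 12.4 to 20.3 CPM treated, and those of fibroblasts at 12.0 to 16.8 and 19.4 to 23.4 CPM. The 3 markers of cycling cells in the table (MKI67, TOP2A, CCNB1) summed to 42.1 to 56.6 CPM untreated and 16.6 to 23.3 CPM treated. Their part in the result was not tested, and in bulk RNA fewer cells of a type and less RNA per cell cannot be told apart. With upper quartile scaling the median of all genes shifted by 0.14 and 59.7% of calls were higher in place of 49.5%, while all 6 mRNAs were still called lower, MT-CO1 at -0.33 (adjusted p = 0.0296).

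**Figure D2:**
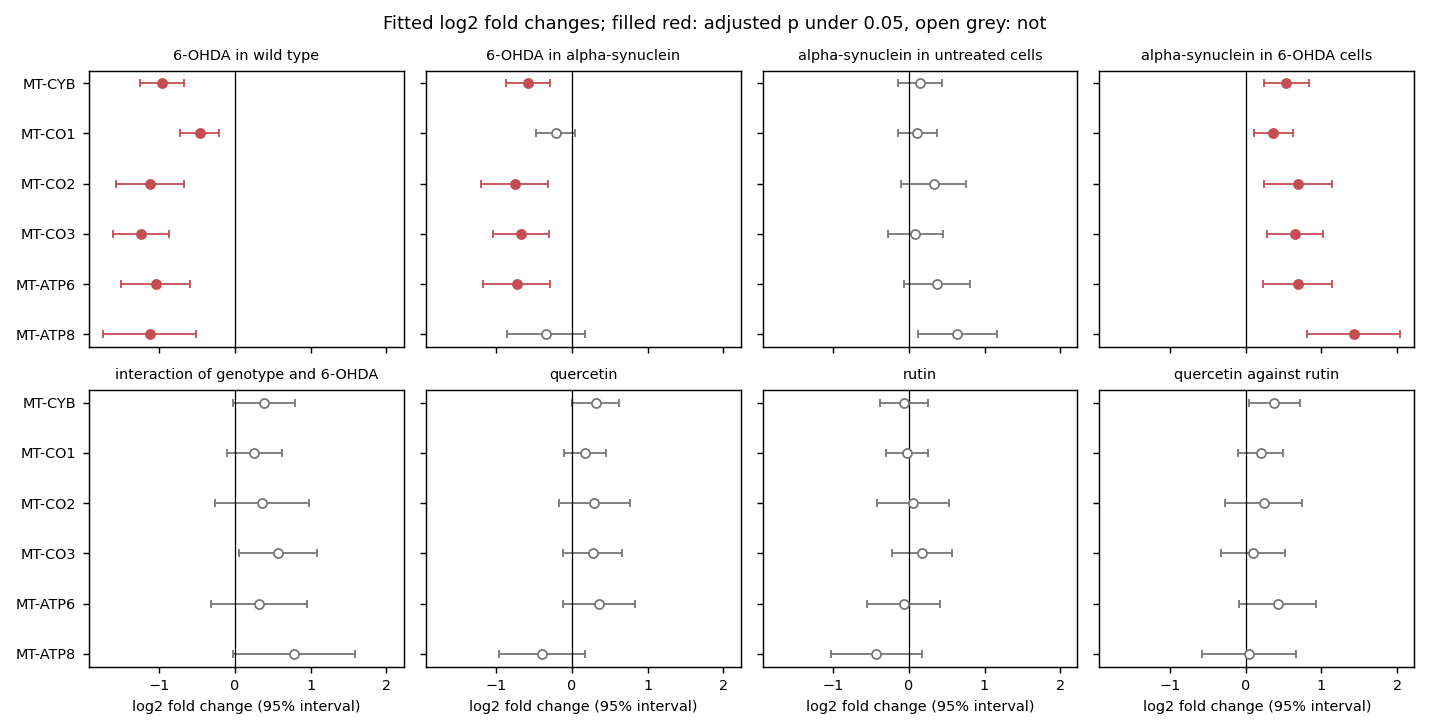
Fitted log2 fold change of each of the 6 mRNAs (horizontal axis, with 95% intervals) in the 8 comparisons, filled red where the edgeR adjusted p was under 0.05 and open grey where it was not. In wild-type cells all 6 values for 6-OHDA are filled and negative, and under 6-OHDA all 6 values for alpha-synuclein are filled and positive, from 0.36 to 1.42.

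In alpha-synuclein cells 6-OHDA lowered 4 of the 6 mRNAs: MT-CYB, MT-CO2, MT-CO3 and MT-ATP6. MT-CO1 and MT-ATP8 did not pass the test. The median of the 6 log2 fold changes was -0.62 against 0.05 over all genes, of which 24.2% were called lower and 22.9% higher. The untreated libraries came from lane 1 and the treated ones from lane 2, so that treatment and lane cannot be told apart in this comparison.

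MT-CYB went from 978, 1011, 820 and 1062 CPM to 644, 666, 544 and 738 CPM, a log2 fold change of -0.58 ± 0.14 (SE; edgeR adjusted p = 0.0018). MT-CO3 went from 1250, 1634, 1172 and 1472 CPM to 793, 807, 730 and 1134 CPM, or by -0.67 ± 0.18 (SE; adjusted p = 0.00346). In neither gene did the groups overlap, but library 4 of the treated cells was the highest of its group in both. MT-ATP6 fell by 0.73 ± 0.21 on the log2 scale (SE; edgeR adjusted p = 0.00759), from 334 to 473 CPM to 198 to 282 CPM, again without overlap. MT-CO2 fell by 0.76 ± 0.21 (SE; edgeR adjusted p = 0.00544), from 996, 1046, 743 and 1151 CPM to 519, 552, 463 and 789 CPM. Here library 4 of the treated cells lay above the lowest untreated library, and the other 3 treated libraries lay below every untreated one.

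MT-CO1 measured 6014, 6548, 5135 and 6667 CPM untreated and 5704, 5704, 4337 and 5248 CPM after 6-OHDA, so the groups overlapped. Its log2 fold change was -0.21 ± 0.12 (SE; edgeR adjusted p = 0.157), with a 95% interval of -0.47 to 0.04. MT-ATP8 measured 34.3, 16.7, 16.8 and 27.5 CPM untreated and 19.9, 22.3, 13.9 and 18.5 CPM after treatment, with a log2 fold change of -0.35 ± 0.25 (SE; edgeR adjusted p = 0.261). The untreated libraries 1 and 4 of this gene were well above the other 2. Of the 7 complex I mRNAs 1 was called lower (MT-ND5, -0.50 ± 0.15), with a median log2 fold change of -0.32; this count was 3 without untreated alpha-synuclein library 3 and 2 without treated alpha-synuclein library 4. The summed neuronal markers were at 3473 to 4391 CPM untreated and 1919 to 2718 CPM treated. The dopaminergic ones were at 341 to 443 and 75.9 to 105 CPM, and those of cycling cells at 42.3 to 89.7 and 7.54 to 36.1 CPM. Markers of astrocytes summed to 8.49 to 10.4 and 10.1 to 20.5 CPM, and those of fibroblasts to 18.5 to 21.5 and 12.2 to 21.3 CPM. The part of these markers in the result was not tested. With upper quartile scaling 61.0% of calls over all genes were higher in place of 48.6%, and the same number of the 6 mRNAs, 4, was called lower.

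Alpha-synuclein overexpression alone gave 0 calls among the 6 mRNAs in untreated cells (edgeR). One of them, MT-ATP8, had an unadjusted p under 0.05, and DESeq2 also called 0. Over all genes 0.651% were called in either direction. The log2 fold changes were between 0.08 (MT-CO3) and 0.64 (MT-ATP8), with a median of 0.24 where all genes had a median of 0.0005. MT-ATP8 measured 13.9 to 16.3 CPM in wild-type and 16.7 to 34.3 CPM in alpha-synuclein libraries, without overlap, but its log2 fold change of 0.64 ± 0.25 (SE) had an edgeR adjusted p of 0.372. For the other 5 genes the ranges of the genotypes overlapped.

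Among 6-OHDA-treated cells all 6 mRNAs were higher in alpha-synuclein than in wild-type cells, by 1.29-fold for MT-CO1, 1.45-fold to 1.61-fold for MT-CYB, MT-CO2, MT-CO3 and MT-ATP6, and 2.68-fold for MT-ATP8. Of all genes 14.4% were called higher and 12.9% lower, and their median log2 fold change was -0.01, against 0.67 for the 6. The alpha-synuclein libraries came from lane 2 and the wild-type libraries from lane 1, so genotype and lane cannot be told apart here.

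MT-ATP8 had the largest difference of the 6, with 4.54 to 9.30 CPM in wild-type and 13.9 to 22.3 CPM in alpha-synuclein libraries and a log2 fold change of 1.42 ± 0.30 (SE; edgeR adjusted p = 0.00121). MT-CYB differed by 0.54 ± 0.14 (SE; edgeR adjusted p = 0.00688) and MT-CO3 by 0.65 ± 0.18 (SE; adjusted p = 0.00898). In these 3 genes every alpha-synuclein library lay above every wild-type library. MT-CO2 differed by 0.69 ± 0.21 (SE; edgeR adjusted p = 0.0196), MT-ATP6 by 0.68 ± 0.22 (SE; adjusted p = 0.0239) and MT-CO1 by 0.36 ± 0.12 (SE; adjusted p = 0.0316). In these 3 the genotypes overlapped: wild-type library 3 lay above alpha-synuclein library 3, and for MT-CO1 wild-type library 1 did too. Without wild-type library 2, the lowest of its group in all 6 genes, 3 genes were called, and MT-CO1, MT-CO2 and MT-ATP6 had adjusted p-values of 0.0674, 0.0543 and 0.07. Without alpha-synuclein library 2, MT-CO1 stood at 0.35 (adjusted p = 0.0546). Without alpha-synuclein library 4, MT-CO2 stood at 0.50 (adjusted p = 0.0957) and MT-ATP6 at 0.61 (adjusted p = 0.0713). MT-ATP8 and MT-ATP6 lie on 1 mRNA, so their unlike values of 1.42 and 0.68 are not changes of separate mRNAs.

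The complex I mRNAs were called higher in 7 of 7, with a median log2 fold change of 1.21. They share their libraries with the 6, so the counts are given side by side. The summed neuronal markers were at 1582 to 1714 CPM in the treated wild-type and 1919 to 2718 CPM in the treated alpha-synuclein libraries, and the dopaminergic ones at 150 to 167 and 75.9 to 105 CPM; their part in the result was not tested.

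Whether 6-OHDA acted differently in the genotypes was tested as an interaction. None of the 6 mRNAs was called by edgeR, with 1 at an unadjusted p under 0.05 (MT-CO3), and DESeq2 also called 0. Of all genes 21.6% were called, 11.2% with a higher and 10.5% with a lower value in alpha-synuclein cells. All 6 estimates were positive, from 0.25 for MT-CO1 to 0.78 for MT-ATP8, the latter with a 95% interval of -0.02 to 1.58. MT-ATP6, carried on the same mRNA as MT-ATP8, stood at 0.32. For MT-CO3 the difference was 0.57 ± 0.25 (SE; edgeR adjusted p = 0.111). It had an adjusted p of 0.0484 without treated wild-type library 3 and of 0.0417 in a fit of the 4 groups alone. The complex I mRNAs had 4 of 7 called higher and a median of 0.86, or between 3 and 7 when 1 library was left out, with 7 without treated alpha-synuclein library 3. Without the 2 untreated alpha-synuclein libraries that carry 4 barcode numbers and treated alpha-synuclein library 4, a setting chosen after seeing the data, 1 of 7 was called. A smaller fall of the 6 mRNAs in alpha-synuclein cells was therefore not shown, and the lane differed between treated groups here as well.

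All 13 mitochondrial mRNAs but MT-ND6 are encoded on the same strand. Each gene was also expressed as its share of the counts of these 13 mRNAs in the same library, a quantity that does not depend on library scaling. Together the 6 took 82.3, 84.0, 82.6 and 80.7% in untreated and 87.1, 88.8, 87.0 and 88.5% in treated wild-type libraries, without overlap. The difference of 5.41 percentage points had an exact two-sided permutation p of 0.0286, the smallest that 4 against 4 libraries can give, and 0.0571 after adjustment over 4 comparisons. In alpha-synuclein cells the share was 80.6% untreated and 81.5% treated, a difference of 0.89 points (exact permutation p = 0.371, adjusted 0.371). Alpha-synuclein minus wild-type cells gave -6.31 points under 6-OHDA (exact permutation p = 0.0286, adjusted 0.0571) and -1.79 points without it (exact permutation p = 0.114, adjusted 0.152). None of the 4 differences passed 0.05 after adjustment. A difference could pass only if most of the 4 had the smallest p, so this outcome says little.

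Of the 6, MT-CO1 alone had a larger mean share in treated than in untreated wild-type cells. Its own share was 53.4, 52.8, 52.8 and 49.3% in untreated and 63.5, 67.1, 61.7 and 64.1% in treated wild-type libraries. In alpha-synuclein cells it was 48.97, 49.9, 51.2 and 49.4% untreated and 58.0, 58.3, 57.5 and 51.3% treated. In both genotypes the treated libraries lay above the untreated ones without overlap, by 12.1 and 6.42 points (each an exact permutation p of 0.0286, or 0.0762 adjusted over the 24 tests of single genes). Whether these 2 differences differ from each other was not tested. Among treated cells alpha-synuclein minus wild type was -7.86 points, without overlap and at the same p. Treated alpha-synuclein library 4 was closest to the untreated ones, and without it the difference was 8.08 points.

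MT-CYB, MT-CO3, MT-CO2 and MT-ATP6 had smaller mean shares after treatment in both genotypes. MT-CYB went from 8.05 ± 0.19 to 6.99 ± 0.06% (SD, n = 4) in wild-type and from 7.93 ± 0.20 to 6.95 ± 0.33% (SD, n = 4) in alpha-synuclein cells, without overlap in either. MT-CO3 went from 12.0 to 8.64% and from 11.3 to 9.27%, MT-CO2 from 7.21 to 5.59% and from 8.00 to 6.20%, and MT-ATP6 from 2.90 to 2.36% and from 3.34 to 2.62%. Of these, MT-CO3 and MT-CO2 separated without overlap in wild-type cells and MT-ATP6 in alpha-synuclein cells. MT-ATP8 took 0.139% and 0.106% in wild-type but 0.194% and 0.199% in alpha-synuclein cells. These tests of single genes were added after the levels had been seen, and none passed 0.05 after adjustment over the 24. A gene could pass only if most of the 24 had the smallest p that 4 against 4 libraries can give. That none passed therefore says little.

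**Figure D3:**
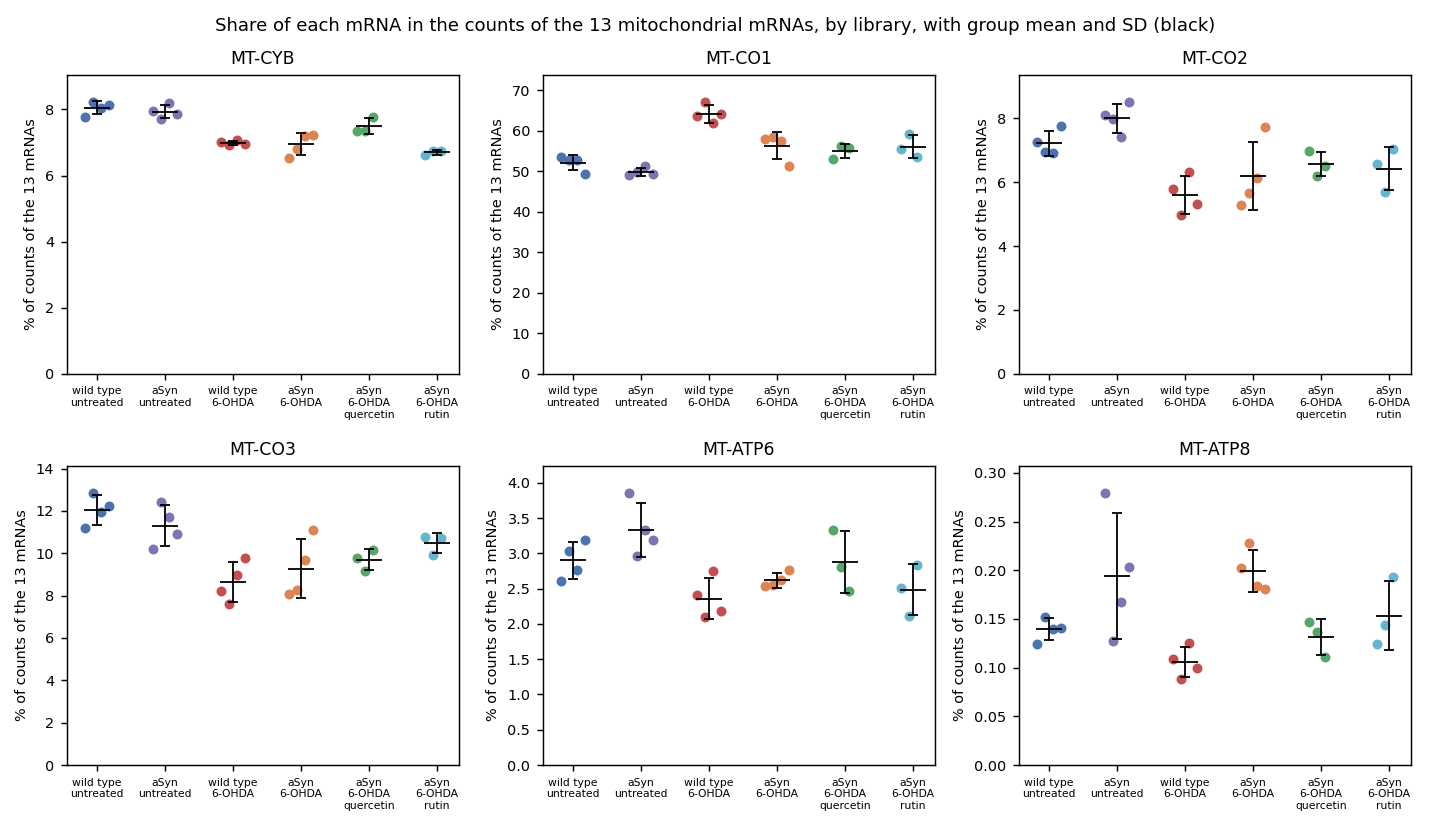
Share of each of the 6 mRNAs in the counts of the 13 mitochondrial mRNAs of the same library, in percent (vertical axis, starting at 0), by group, with points for libraries and black bars for the group mean and SD. The share of MT-CO1 was 64.1% on average in treated against 52.1% in untreated wild-type libraries, and that of MT-CYB 6.99% against 8.05%.

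Quercetin left the 6 mRNAs without a call in 6-OHDA-treated alpha-synuclein cells (edgeR 0 of 6, 1 with an unadjusted p under 0.05, DESeq2 0), while 2.53% of all genes were called. Over all genes 22.1% of the 420 calls were higher, or 39% with upper quartile scaling. Rutin gave 0 of 6 (0 with an unadjusted p under 0.05, DESeq2 0), and edgeR called 0% of all genes, with 1790 at an unadjusted p under 0.05 and 288 called by DESeq2. All 3 groups came from lane 2.

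With quercetin MT-CO1 measured 6841, 5388 and 5544 CPM and with rutin 5405, 3973 and 6129 CPM, around the 4337 to 5704 CPM of 6-OHDA alone. MT-CYB was at 949, 706 and 772 CPM with quercetin and 643, 454 and 771 CPM with rutin, against 544 to 738 CPM with 6-OHDA alone. Its log2 fold change with quercetin was 0.32 ± 0.15 (SE; edgeR adjusted p = 0.283). The remaining 5 values with quercetin were between -0.39 (MT-ATP8) and 0.36 (MT-ATP6), and the 6 with rutin between -0.43 (MT-ATP8) and 0.17 (MT-CO3). In each of the 6 genes the compound libraries overlapped those of 6-OHDA alone.

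Quercetin and rutin differ by the disaccharide that rutin carries, and this 1 pair was compared directly, although their doses are not stated. None of the 6 mRNAs was called (edgeR 0, 1 with an unadjusted p under 0.05, DESeq2 0), and 0.00602% of all genes were. With upper quartile scaling edgeR called 30 genes, 25 of them higher with quercetin, in place of 1 lower. MT-CYB was 0.38 ± 0.16 higher with quercetin on the log2 scale (SE; edgeR adjusted p = 0.481), with a 95% interval of 0.05 to 0.71. The intervals of the other 5 genes included 0, and the widest, of MT-ATP8, ran from -0.58 to 0.66. With 3 libraries a group these data do not show that the compounds act alike. The 6 mRNAs took 81.7 ± 1.09% of the mitochondrial mRNA counts with quercetin and 82.3 ± 1.31% with rutin (SD, n = 3).

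The nuclear factors that make, tail and stabilise mitochondrial mRNAs were examined next. In wild-type cells 4 of 30 rose and 12 fell with 6-OHDA, so that 53.3% were called, close to the 52.01% of all genes. MTPAP, the mitochondrial poly(A) polymerase, fell (-0.78 ± 0.10, adjusted p = 5.94e-07). TBRG4 (0.74 ± 0.10) and FASTK (0.84 ± 0.12), both FASTK family proteins of mitochondrial RNA, rose. In alpha-synuclein cells 2 rose and 7 fell, or 30% called against 47.1% of all genes, among those that fell HSD17B10, a subunit of mitochondrial RNase P (-0.996 ± 0.13), LRPPRC (-0.43 ± 0.12) and its partner SLIRP (-0.44 ± 0.12). The 9 calls were 5 without treated alpha-synuclein library 1 or library 2, and 4 without the 2 untreated libraries with 4 barcode numbers. Among treated cells 8 were higher and 3 lower in alpha-synuclein than in wild-type cells (36.7% called, against 27.3% of all genes), with MTPAP (0.55 ± 0.10) and FASTKD2 (0.94 ± 0.16) higher and TBRG4 (-0.68 ± 0.10) lower.

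The nuclear subunits of the same complexes are read against the 26.2% of all genes called lower and 25.8% called higher in wild-type cells, and the 24.2% and 22.9% in alpha-synuclein cells. For complex III 4 of 8 fell and 2 rose in wild-type cells, and 2 of 8 fell in alpha-synuclein cells. UQCR10, a small subunit, fell in wild-type (-0.92 ± 0.13) and in alpha-synuclein cells (-1.05 ± 0.13). For complex IV 6 of 10 fell and 1 rose in wild-type cells, and 5 fell and 2 rose in alpha-synuclein cells. COX5B fell in each (-0.68 ± 0.14 and -0.87 ± 0.13), and NDUFA4, first described in complex I and now placed in complex IV, rose in each (0.96 ± 0.20 and 0.95 ± 0.18). For complex V 12 of 18 fell and 2 rose in wild-type cells, and 10 fell and 3 rose in alpha-synuclein cells. ATP5PB, of the peripheral stalk, fell in wild-type cells (-1.21 ± 0.12), as did ATP5F1A, the alpha subunit (-0.77 ± 0.09 in wild-type, -0.61 ± 0.09 in alpha-synuclein cells), and ATP5IF1, the inhibitor of ATP hydrolysis (-0.98 ± 0.12 and -0.75 ± 0.12).

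Of 28 tested assembly factors 11 fell and 5 rose in wild-type cells, and 6 fell and 2 rose in alpha-synuclein cells. This was 57.1% called against 52.01% of all genes in wild-type cells, and 28.6% against 47.1% in alpha-synuclein cells. ATPAF1, a chaperone of the ATP synthase beta subunit, fell in each (-1.59 ± 0.15 and -0.84 ± 0.14). OXA1L, which inserts mitochondrially made proteins into the inner membrane, rose in wild-type cells (0.61 ± 0.11), and COX19, a copper-handling factor of complex IV, rose in alpha-synuclein cells (1.27 ± 0.24). The 16 calls in wild-type cells were 10 without treated library 1. Among 8 regulators of mitochondrial biogenesis 3 rose and 1 fell in wild-type cells, with PPARGC1B, a coactivator, rising (1.08 ± 0.11) and GABPA, a subunit of nuclear respiratory factor 2, falling (-1.15 ± 0.14). In alpha-synuclein cells 2 rose, YY1 (0.57 ± 0.11) and PPARGC1B (0.33 ± 0.10).

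Over these 6 nuclear lists together 61.8% of tested genes were called in wild-type and 40.2% in alpha-synuclein cells after 6-OHDA, against 52.01% and 47.1% of all genes, with medians of -0.27 and -0.12, and the 6 mitochondrial mRNAs had medians of -1.08 and -0.62. Between treated alpha-synuclein and wild-type cells 29.4% were called, against 27.3% of all genes, and the median was 0.09. For complex IV subunits that comparison had 2 of 10 higher (COX7C, 0.81 ± 0.15, and COX7B, 0.57 ± 0.12), or 5 called without treated alpha-synuclein library 4. The edgeR fit called 0 of them for alpha-synuclein in untreated cells (6 with an unadjusted p under 0.05, DESeq2 2), for quercetin (11, DESeq2 1), for rutin (5, DESeq2 0) and for quercetin against rutin (10, DESeq2 1).

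**Figure D4:**
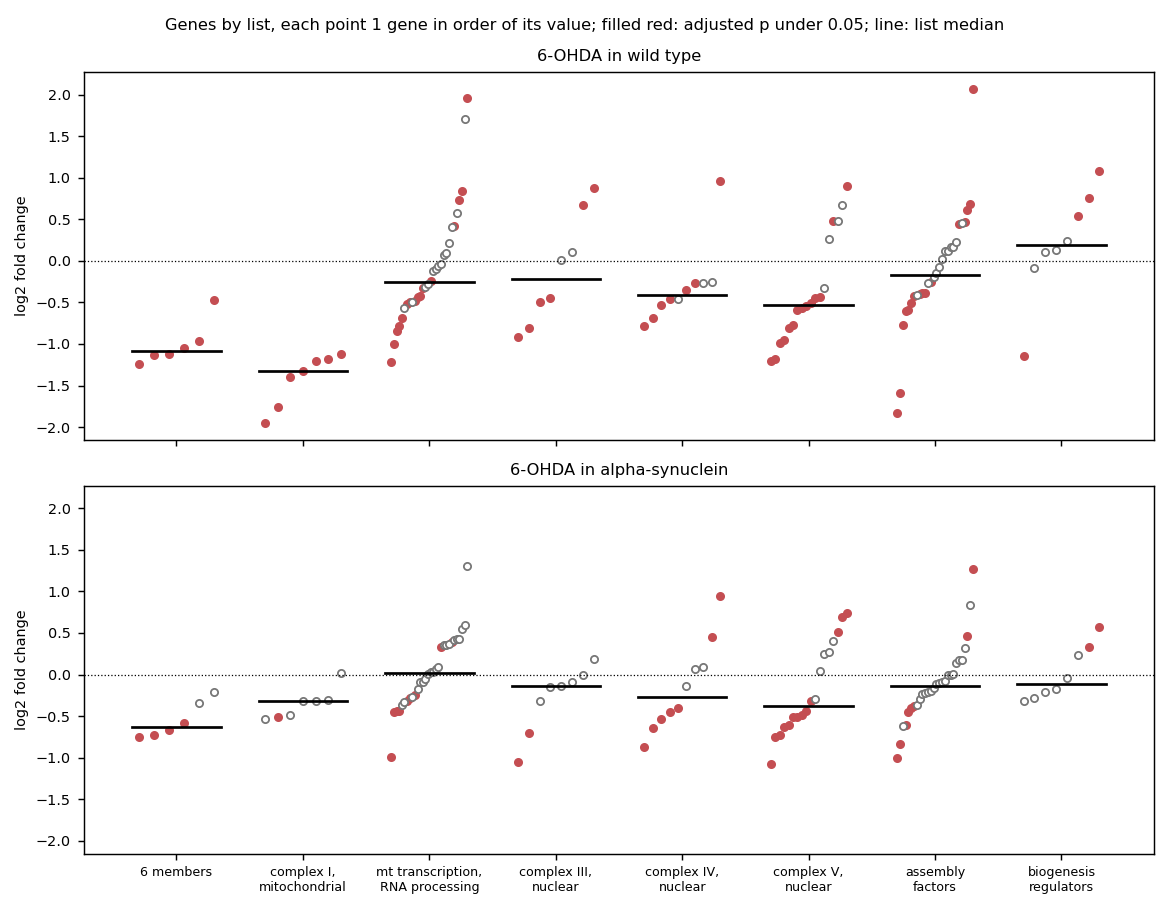
Log2 fold change with 6-OHDA (vertical axis) in wild-type cells (top) and alpha-synuclein cells (bottom) of the 6 mRNAs, the 7 complex I mRNAs and the 6 nuclear lists, 1 point per gene in order of its value, filled red where the edgeR adjusted p was under 0.05, with a black line at each median. All 13 mitochondrially encoded genes lie below 0 in wild-type cells, while there each nuclear list holds genes on either side of 0.

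The 6 mRNAs varied together: over the 22 libraries the Pearson r of their log2 CPM was 0.769 to 0.981 in the 15 pairs, with a median of 0.925. These points share library depth, treatment and scaling. Among 9584 other genes averaging at least 10 CPM, the nearest to the mean of the 6 were PKIA, an inhibitor of protein kinase A (r = 0.866), KLHL23 (0.865), CD59, an inhibitor of complement on the cell surface (0.865), CTTNBP2 (0.864), ZNF266 (0.858), SRP14 of the signal recognition particle (0.853), ECD (0.848), PMS2P6 (0.846), IKZF4 (0.844) and SERPINI1, a neuronal serpin (0.842). CTTNBP2, for one, averaged 50.7 CPM in untreated and 16.8 CPM in treated wild-type cells, and 50.97 and 29.6 CPM in alpha-synuclein cells. The most opposite genes were TMEM200C (r = -0.896), FLYWCH1 (-0.881), CAPN7 (-0.866), EARS2, the mitochondrial glutamyl-tRNA synthetase (-0.866), and GOLGA3 (-0.857). GOLGA3, of the Golgi, averaged 63.7 CPM in untreated and 199 CPM in treated wild-type cells, and 64.6 and 104 CPM in alpha-synuclein cells.

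The near-identical nuclear copies were followed in the same fit. With 6-OHDA MTATP6P1 moved like MT-ATP6. Its log2 fold changes were -1.02 ± 0.22 (SE, edgeR adjusted p = 0.000479) in wild-type and -0.55 ± 0.19 (SE, adjusted p = 0.0216) in alpha-synuclein cells. It was 0.93 ± 0.22 higher in treated alpha-synuclein than treated wild-type cells (SE, adjusted p = 0.00313). With quercetin its log2 fold change was -0.36 against 0.36 for MT-ATP6, and with rutin -0.57 against -0.07, none of them called. MTCO1P12 measured 13.8 ± 1.64 CPM in untreated and 13.3 ± 2.51 CPM in treated wild-type cells (SD, n = 4), with a log2 fold change of -0.04 ± 0.17 (SE; edgeR adjusted p = 0.849). In alpha-synuclein cells it fell by 0.63 ± 0.16 (SE; edgeR adjusted p = 0.00336), from 14.6 ± 1.99 to 9.56 ± 0.88 CPM (SD, n = 4), and among treated cells it was 0.50 ± 0.18 lower there than in wild-type cells (SE; adjusted p = 0.038), while MT-CO1 was higher. Reads of these copies and of their sources are hard to tell apart, as the windows shown above make plain.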

How the data were processed

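Values were estimated counts per gene, whole numbers without normalisation, as deposited by the authors for 22 libraries of polyadenylated RNA. Per the submitters' processing notes, which give no order or role, Trimmomatic 0.38, kallisto 0.46.2 and the human build GRCh38 were used. No source used here states the summing of transcripts to genes or the use of strand; MT-ND6 lies on the strand opposite to the 6 genes. Groups and replicate numbers came from sample titles and lanes from library names. Separate cultures are not stated for the replicates, so each p-value reflects the spread between these samples alone, and that spread may be technical.

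Rounded counts were fitted in edgeR 4.0.16 (R 4.3.3). filterByExpr with a minimum count of 10 left 16601 of 34679 genes and removed 0.174% of counts. After TMM scaling, a quasi-likelihood fit (glmQLFit, glmQLFTest) was made on the group means of all 22 libraries. Calls needed an adjusted p (Benjamini-Hochberg, all tested genes) under 0.05. The SE was the fold change divided by the root of F, and the 95% intervals use the t distribution with the degrees of freedom of that test. CPM use TMM-scaled library sizes. Shares were compared by exact permutation of libraries, two-sided. The 8 comparisons were refitted with RLE and upper quartile scaling, other count filters, a replicate block, only the groups compared, nuclear copies added, DESeq2 1.42.0 and single libraries left out. Positions and sequences came from GENCODE 29, which held 34658 (99.9%) of the IDs. The fits were tested on simulated data. Replicate pairs differed beyond sampling noise (chi-square per degree of freedom 2.87 to 26.2 over 30 pairs). Floors cover counting error only.

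The members and the gene lists were chosen with earlier results of these data known. Named genes were the 6 members, in each comparison up to 3 called genes per list, taken from the smallest adjusted p upward, of which some appear in the text, nuclear copies at 10 CPM or more, and the 10 genes most like the 6 and the 5 most opposite by Pearson r. TFB2M, FASTKD5, UQCRFS1, COX8A and PET117 of the lists and SOX2 and NES of the markers were not analysed here. The level of the overexpressed gene and the sum of the oligodendrocyte markers are not reported here.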

Additional observations from a re-analysis of the deposited data

Results flagged for a closer look

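In each group of 4 libraries the level and share of each gene and the combined share were tested for a stray value. In these 52 tests, of which chance would mark about 1 in 20 were they independent, 2 libraries stood apart. That is no more than this rate would mark, but the tests share libraries, so the rate is only a rough guide. Both stood apart in the share of MT-CO1 among the 13 mitochondrial mRNAs. Untreated wild-type library 4 had 49.3% where the other 3 had 52.8 to 53.4%. Treated alpha-synuclein library 4 had 51.3% where the other 3 had 57.5 to 58.3%. Without them the rise of the MT-CO1 share with 6-OHDA was 11.2 points in wild-type and 8.08 points in alpha-synuclein cells. The groups had no overlap with all libraries in. The exact permutation p could therefore only be 0.0286, the smallest that 4 against 3 libraries can give, and it decides nothing further.

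The 6 mRNAs had no called difference between the genotypes in their response to 6-OHDA by edgeR's interaction term. Of all genes 21.6% were called, and of the 6 nuclear lists together 24.5%, near that share. By list, 33.3% of RNA-handling factors, 50% of complex III, 20% of complex IV and 22.2% of complex V were called. For assembly factors it was 10.7%, for biogenesis regulators 25% and for the complex I mRNAs 57.1%. The called genes with the smallest adjusted p in each list follow. A positive value means a smaller fall or a larger rise in alpha-synuclein cells, and lane cannot be told apart from the difference. Of the complex I mRNAs the difference was 1.97 for MT-ND4L (adjusted p = 0.00164), 1.45 for MT-ND3 and 0.89 for MT-ND5 (adjusted p = 0.00633 each); MT-ND4L overlaps MT-ND4 by 7 bases. Of the RNA-handling factors it was 0.69 for MTPAP (adjusted p = 0.00133), 1.07 for FASTKD2 (0.00173) and -0.64 for TBRG4 (0.00258).

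Of the nuclear complex III subunits the difference was -1.03 for CYC1, cytochrome c1 (adjusted p = 0.00278), 0.71 for UQCRB (0.00955) and 0.36 for UQCRC2 (0.0313). Of complex IV it was 0.60 for COX7B (adjusted p = 0.0102) and 0.71 for COX7C (0.013). Of complex V it was 1.07 for ATP5F1B, the catalytic beta subunit (adjusted p = 0.00117), 0.69 for ATP5PB (0.00424) and -0.78 for ATP5F1D (0.00725). Of the assembly factors it was -0.91 for SCO2 (adjusted p = 0.000956), 0.75 for ATPAF1 (0.0107) and 1.34 for COX19 (0.0117), and of the biogenesis regulators -0.76 for PPARGC1B (0.00143) and 0.94 for GABPA (0.00155). Signs were mixed within the lists of RNA-handling factors, complex III, complex V, assembly factors and biogenesis regulators. Without the 2 untreated alpha-synuclein libraries that carry 4 barcode numbers, 0 of 10 complex IV subunits were called in place of 2, so that COX7B and COX7C both lost their calls. Under the same setting 1 of 8 complex III subunits was called in place of 4, and 5 of 30 RNA-handling factors in place of 10. Calls over all genes fell as well, to 1978 in place of 3594.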

How the results depend on the processing

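The counts of called members kept within 1.5 times in 73 of 75 refits that did not leave out a single library and in 66 of 68 that did, and no called value changed sign. For alpha-synuclein in 6-OHDA cells the count ran from 3 to 6 when 1 library was left out, with 3 without treated wild-type library 2, and was 3 without treated alpha-synuclein library 4 and the 2 untreated libraries that carry 4 barcode numbers, a setting chosen after seeing the data. For the interaction it ran from 0 to 1, and was 1 with only the 4 groups compared in the fit. Dividing counts by gene length turned the difference in the combined share for 6-OHDA in alpha-synuclein cells from 0.89 to -0.39 percentage points (adjusted p = 0.743); the cause was not tested. Signs turned under some setting for 5 of the 6 members with rutin (12 turns, up to 0.21 for MT-ATP6 without rutin library 2). In quercetin against rutin they turned for 3 (6 turns, up to -0.21 for MT-ATP8 without rutin library 2). Some refits turned several members at once. With alpha-synuclein in untreated cells MT-CO3 turned (-0.0068 without untreated alpha-synuclein library 2). Of all these values 0 were called with or without the library.

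Same-numbered libraries did not deviate together (r of -0.138 to 0.0776 over 51 pairs), and 2 of 22 libraries matched best with their own number. With the replicate block the counts of called members were 6, 4, 0, 6, 0, 0, 0 and 0 in the 8 comparisons, as without it, and genes called with quercetin were 120 in place of 420. DESeq2 called 219 genes in place of 108 for alpha-synuclein in untreated cells, 953 in place of 420 for quercetin and 288 in place of 0 for rutin. Leaving out 1 library gave 33 to 239 genes, 26 to 896 genes and 0 to 143 genes in these comparisons, and only the groups compared gave 23 and 2 in the first pair. Without the 2 libraries with 4 barcode numbers 11 genes in place of 108 were called for alpha-synuclein in untreated cells, and quercetin had 84 without treated alpha-synuclein library 4. Depth limits MT-ATP8 most, with 12 to 20 counts in the shallow treated wild-type libraries.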
